A study of Mus musculus with 14 samples.

Results

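CXC chemokines are small secreted proteins, named for the spacing of the cysteines near their amino terminus, that attract leukocytes through G protein-coupled receptors. The ligands described here are the 9 genes Cxcl1, Cxcl2, Cxcl3, Cxcl9, Cxcl10, Cxcl13, Cxcl14, Cxcl16 and Pf4, chosen by name and all present among the 43432 genes of the table. Their levels were measured by RNA-seq in 14 libraries of lung cells positive for the sialic acid-binding lectin SiglecF and the integrin subunit CD11c, which in combination mark alveolar macrophages. The cells came from male 129S1 mice that were 10 to 12 weeks old when bleomycin, labelled 3 U/k, or water was given into the trachea. Bleomycin breaks DNA and is widely used to model lung fibrosis. No genetic alteration is labelled in any group.

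The comparisons used 5 groups. Cells low in MHC class II (MHCII), the molecules that present peptides to helper T cells, came from 2 water-treated controls (replicates 1 and 3), from 3 samples taken 2 weeks and 3 taken 4 weeks after bleomycin. Cells high in MHCII came from 3 samples at 2 weeks and 3 at 4 weeks after bleomycin. MHCII-high cells of control mice were not analysed here, so the MHCII-high values have no untreated counterpart. The labels do not say whether each library came from 1 mouse or from pooled mice, and p-values measure only the spread between these samples.

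Macrophages release different CXC ligands depending on the stimulus. Cxcl1, Cxcl2 and Cxcl3 carry a glutamate-leucine-arginine (ELR) motif and call neutrophils through Cxcr2, and their genes are classical targets of the transcription factor NF-kB. Cxcl9 and Cxcl10 are induced by interferons and call T and NK cells through Cxcr3. Cxcl13 guides B cells through Cxcr5 and is known for its place in lymphoid tissue. Cxcl16 is unusual in being made as a transmembrane protein that also binds oxidised lipoprotein, and its soluble form acts on Cxcr6. Pf4, platelet factor 4, is stored in platelet granules, and Cxcl14 is found in many epithelia.

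Recovered depth ran from 15106415 to 88059622 reads per library. Summed over 9 genes, alveolar macrophage markers held 324000 to 556700 normalized counts in each library. Siglecf itself was 6460.9 to 9550.6 in the 8 MHCII-low libraries and 3056.4 to 4358.1 in the 6 MHCII-high libraries, without overlap. Markers of monocyte-derived or interstitial macrophages were higher in MHCII-high cells, and their values are given beside the ligands they moved with. The share of reads from mitochondrial ribosomal RNA varied from 3.12% to 28.99% between libraries.

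Start-site sequences of 8 of the 9 ligands were matched by symbol in the RefSeq promoter table, on build GRCm38.p6. They are shown for the 3 ELR ligands, whose genes lie in the same region of chromosome 5 and hold the same 11-base block, for Cxcl10, which holds matches for both NF-kB and interferon factors, and for Cxcl13, the ligand with the largest difference. Each line reads 5′ to 3′ on the strand of the gene, and capitals mark matches on either strand to the kappaB consensus, to the interferon-stimulated response element (ISRE, GAAANNGAAA) or to the TATA motif (TATAAA).
Cxcl1, 110 bases ending 1 base before the start, chr5:90891135-90891244, forward: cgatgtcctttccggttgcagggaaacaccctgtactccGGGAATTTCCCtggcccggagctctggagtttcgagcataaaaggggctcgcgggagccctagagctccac
Cxcl2, the same stretch, chr5:90903789-90903898, forward: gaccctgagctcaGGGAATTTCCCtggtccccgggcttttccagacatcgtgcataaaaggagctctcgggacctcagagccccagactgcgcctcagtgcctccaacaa
Cxcl3, the same stretch, chr5:90785991-90786100, forward: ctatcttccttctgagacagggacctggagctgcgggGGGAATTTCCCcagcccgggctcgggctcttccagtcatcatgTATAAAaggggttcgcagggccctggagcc
Cxcl10, from 220 to 90 bases before the start, chr5:92348979-92349109, reverse: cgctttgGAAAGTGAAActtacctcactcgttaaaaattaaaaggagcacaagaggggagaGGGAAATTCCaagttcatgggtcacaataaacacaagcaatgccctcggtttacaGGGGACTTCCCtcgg
Cxcl13, 110 bases ending 1 base before the start, chr5:95956829-95956938, forward: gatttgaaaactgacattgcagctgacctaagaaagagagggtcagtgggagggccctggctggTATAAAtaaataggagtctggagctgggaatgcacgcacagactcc

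Whole windows ran from 250 bases before to 50 bases after the start, 300 bases in all. A kappaB match was present in the windows of Cxcl1, Cxcl2, Cxcl3 and Cxcl10 and in 8.46% of the 32851 windows of the table. In the ELR genes it is the palindrome-like block GGGAATTTCCC, which matches on both strands in overlapping positions. An ISRE match was present for Cxcl10, 213 to 204 bases before the start, and for Cxcl14, against 3.44% of all windows. The gamma interferon-activated site (GAS, TTCNNNGAA) was matched for Cxcl14 alone among the 8, against 8.30% of windows, and TATAAA for Cxcl3, Cxcl9 and Cxcl13, against 13.6%. Pf4 held none of the 4 motifs in its window. These matches describe letters in the reference only, and binding was not measured.

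**Figure D1:**
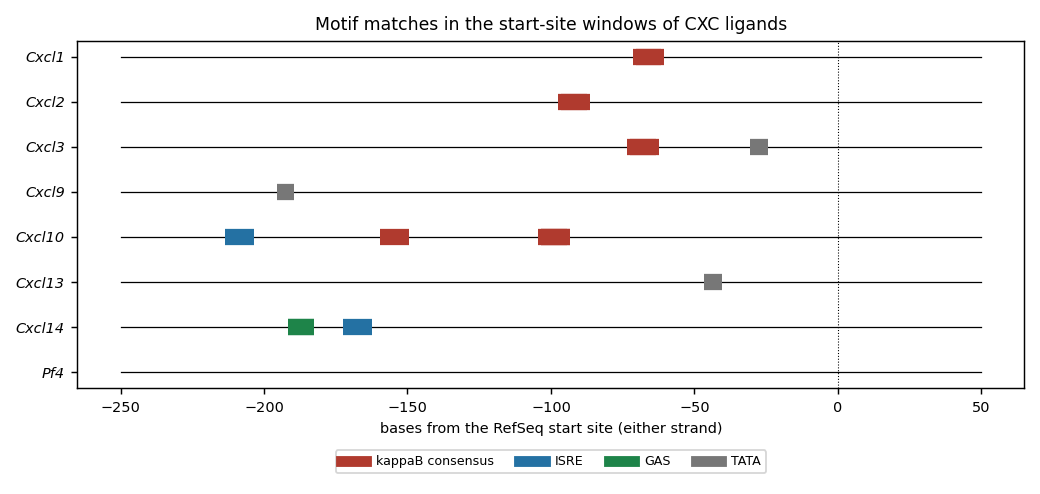
Positions of motif matches on either strand (coloured blocks) within 250 bases before and 50 bases after the RefSeq start site (dotted line, x axis in bases) for 8 CXC ligands. The kappaB matches of Cxcl1, Cxcl2 and Cxcl3 all lie between 97 and 61 bases before the start, and Cxcl10 has a second kappaB match and an ISRE further upstream.

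After bleomycin, 2 ligands were called between MHCII-high and MHCII-low cells: Cxcl16, the transmembrane ligand, and Cxcl13, the B cell attractant. Both were higher in MHCII-high cells at 2 weeks and at 4 weeks. Cxcl16 was also higher in MHCII-low cells 2 weeks after bleomycin than in control cells, and lower at 4 than at 2 weeks in cells of both MHCII levels. The other 7 ligands passed the test in none of the 8 comparisons. Some of their groups did not overlap, such as those of Cxcl10 and Cxcl1 between 2-week and 4-week MHCII-high libraries. How many of all genes separate in this way was not counted, so lack of overlap is given as description only. A gene is said to have risen or fallen, or to be called, where limma's adjusted p over the 17390 genes tested was under 0.05. To be tested, a gene had to reach 10 normalized counts in 2 or more libraries, and all 9 ligands did. Differences are on the log2(normalized count + 1) scale, where adding 1 to each value shrinks the ratio of 2 low values, with the standard error after the ± and limma's 95% interval in brackets.

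At 2 weeks, 2 of the 9 ligands were called higher in MHCII-high cells and none lower, against 2.29% and 0.581% of all tested genes. The ligands' median difference was 1.16, beside 0.08 for all genes. At 4 weeks the same 2 ligands were called higher and none lower, against 1.96% and 0.535% of genes, and the median was 0.32. Over the mean of both times, 2 were higher and none lower, against 5% and 2.21% of genes, with a median of 0.47. The same 2 shares apply to every gene list counted over both times below. Of the genes called over both times 69.4% were higher, a share that was 54.7% with TMM factors, 46.5% with library totals and 25.0% after removing the GC trend, while the ligand calls kept their direction under each. In MHCII-low cells at 2 weeks against control, 1 ligand was higher and none lower, beside 1.48% and 0.426% of genes. The 4-week MHCII-low cells, compared with the same 2 control libraries, had no called ligand in either direction, and only 0.0345% of genes were higher and 0.0115% lower. Between 2 and 4 weeks, 1 ligand fell in MHCII-low cells (0.748% of genes fell and 0.109% rose) and 1 fell in MHCII-high cells (0.759% fell and 0.311% rose). The interaction, the change of the MHCII difference between the 2 times, called no ligand, and limma called 0% of genes higher and 0% lower. For that comparison 987 genes had an unadjusted p under 0.05, edgeR called 0 genes and DESeq2 called 60.

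**Figure D2:**
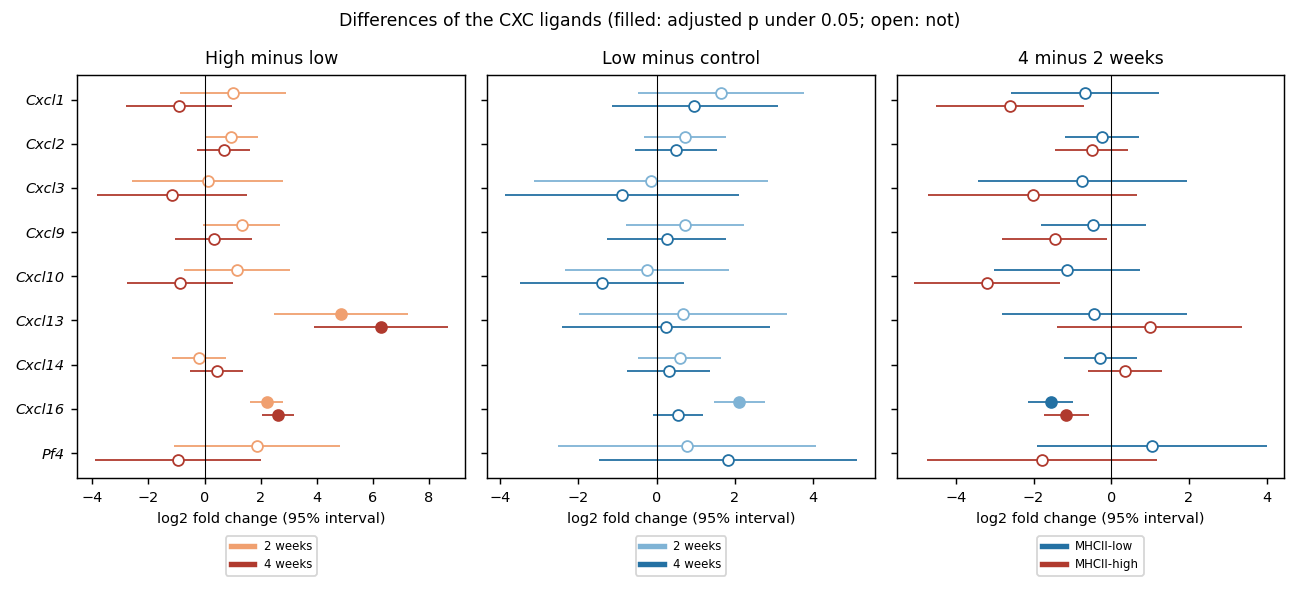
Log2 differences of the 9 ligands (x axis, points with limma 95% intervals) in 6 comparisons, in 3 panels: MHCII-high minus MHCII-low, MHCII-low minus control, and 4 minus 2 weeks. Filled points had an adjusted p under 0.05; they are Cxcl16 and Cxcl13 in the left panel and Cxcl16 alone in the others.

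Cxcl16 lies on chromosome 11 at 70453983 to 70459984, on the reverse strand, with 3021 bases of exon (build mm10 per the submitters' processing notes). Its normalized counts in the 2-week MHCII-high replicates 1, 2 and 3 were 3263.6, 2982.6 and 2542.1, and in the 4-week MHCII-high replicates 1252.9, 1134.4 and 1565.2. MHCII-low cells had 651.1, 458.6 and 832.0 at 2 weeks, with 231.5, 181.4 and 228.2 at 4 weeks. The 2 controls had 197.1 and 105.0. Ordered by their means, the groups ran from 2929 ± 364 (SD, n = 3) in 2-week MHCII-high cells through 1318 ± 223 (n = 3) in 4-week MHCII-high cells, 647.2 ± 187 (n = 3) in 2-week MHCII-low cells and 213.7 ± 28 (n = 3) in 4-week MHCII-low cells to 151.1 ± 65.1 (n = 2) in controls. Only the last 2 groups in this order overlapped.

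By limma, Cxcl16 was higher in MHCII-high cells by 2.21 ± 0.28 [1.63, 2.79] at 2 weeks (adjusted p = 4.7e-05) and by 2.61 ± 0.28 [2.04, 3.19] at 4 weeks (adjusted p = 3.7e-06). The interaction for Cxcl16 was 0.40 ± 0.39 [-0.41, 1.22], which leaves room for a difference between the times of either sign. Against control, MHCII-low cells were higher by 2.12 ± 0.31 [1.47, 2.77] at 2 weeks (limma adjusted p = 3.1e-04). At 4 weeks the difference from the same controls was 0.56 ± 0.31 [-0.09, 1.20] and did not pass (limma adjusted p = 0.86). With only the 5 libraries of the 2-week comparison in the fit, that call was lost (limma adjusted p = 0.11).

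The fall of Cxcl16 from 2 to 4 weeks was 1.56 on the log2 scale in MHCII-low cells, a difference of -1.56 ± 0.28 [-2.14, -0.98] (limma adjusted p = 0.0039). In MHCII-high cells the difference was -1.16 ± 0.28 [-1.74, -0.58] and passed narrowly (limma adjusted p = 0.045). Leaving out any 2-week MHCII-high library, or 4-week MHCII-high replicate 1 or 2, moved that adjusted p above the threshold while the difference stayed between -1.26 and -1.06. Without 2-week MHCII-high replicates 1, 2 and 3 in turn the limma adjusted p was 0.17, 0.12 and 0.084, and without 4-week MHCII-high replicates 1 and 2 it was 0.087 and 0.088. Library-total scaling, which moved the median of all genes by 0.14, also ended both falls' calls. In bulk RNA, fewer cells of a type and less RNA per cell cannot be told apart, and this holds for each group difference given here.

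Among 11427 genes averaging at least 50 normalized counts, the gene closest to Cxcl16 in its pattern over the 14 libraries was Plxnb2, a semaphorin receptor. The measure was the root mean square difference of log2 values after centring each gene, which was 0.27 for Plxnb2 and 0.38 for the next gene, Fcgr2b, an inhibitory Fc receptor; Cxcl16 itself varied about its mean by 1.59. Plxnb2 read 1542.0, 1578.6 and 1758.4 in MHCII-high cells at 2 weeks, 944.9, 674.6 and 810.6 at 4 weeks, and 63.7 to 346.3 in the MHCII-low libraries. By group mean, all 3 genes were highest in 2-week and next highest in 4-week MHCII-high cells. Plxnb2 and Fcgr2b were picked for likeness over the same libraries, so a shared order follows from that choice.

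Markers of monocyte-derived or interstitial macrophages moved with Cxcl16. Of 9 such markers, 7 were higher in MHCII-high cells over the mean of both times and none was lower, beside 5% and 2.21% of all tested genes. None was at 0 in all libraries. Their summed level was 765.3 to 961.4 normalized counts in controls, 2317 to 3314 in 2-week and 814.6 to 1219 in 4-week MHCII-low cells, 23370 to 32860 in 2-week and 11430 to 12500 in 4-week MHCII-high cells. That order of groups is the order of Cxcl16, with controls and 4-week MHCII-low cells overlapping in both. Dendritic cell markers were also higher in MHCII-high cells, 6 of 8 called, with sums of 969.6 to 2176 against 90.6 to 310 in MHCII-low libraries. Alveolar macrophage markers moved the other way: 6 of 9 were lower in MHCII-high cells over both times and none higher. Their sums at 2 weeks were 324000 to 393500 in MHCII-high and 501600 to 556700 in MHCII-low cells. At 4 weeks they were 346800 to 401600 in MHCII-high and 401600 to 494100 in MHCII-low cells. Before rounding, the highest MHCII-high sum, 401575.8, lay just below the lowest MHCII-low sum, 401603.8. The controls, also MHCII-low, had sums of 359000 to 383200, within the MHCII-high range. T or NK cell markers summed to 5174 to 8069 in the MHCII-high and 8979 to 12020 in the MHCII-low libraries. Over both times 1 of the 6 tested, Cd2, was called lower, and 4 differences were negative and 2 positive. At 2 weeks 3 were positive and 3 negative, so this sum does not stand for each of its markers. The share of reads from mitochondrial ribosomal RNA at 2 weeks was 24.90%, 22.51% and 26.25% in MHCII-high and 3.42%, 18.32% and 12.71% in MHCII-low replicates, without overlap, and at 4 weeks the shares overlapped. With that share as a covariate, Cxcl16 kept its calls between MHCII levels. The part of each marker list in the Cxcl16 result was not tested.

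**Figure D3:**
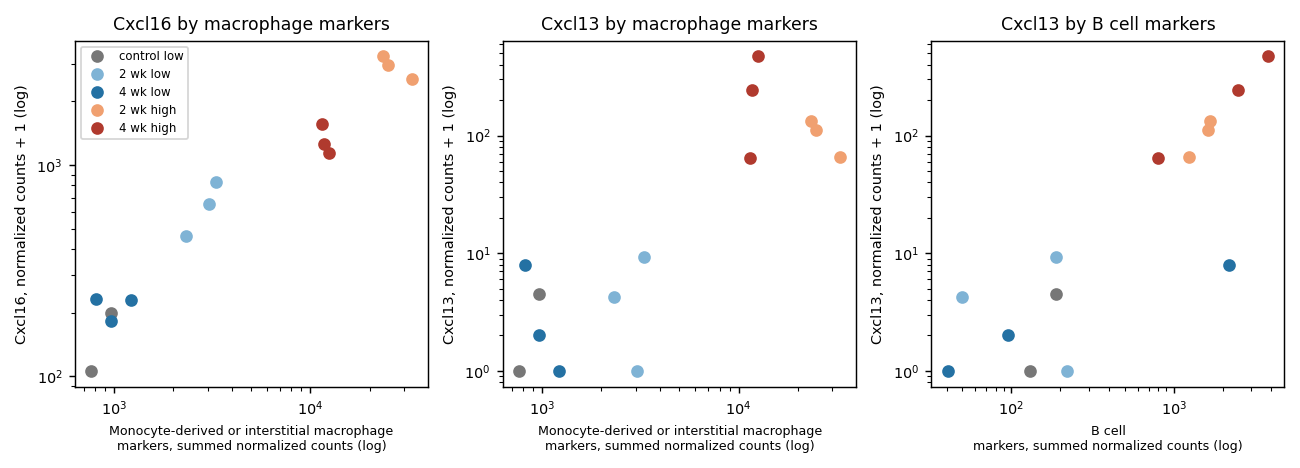
Cxcl16 and Cxcl13 (normalized count + 1, log y axes) against the summed markers of monocyte-derived or interstitial macrophages, and Cxcl13 against summed B cell markers (log x axes), 1 point per library coloured by group. MHCII-high libraries lie at 11430 to 32860 on the macrophage axis and MHCII-low libraries at 765.3 to 3314, and 1 MHCII-low library at 4 weeks lies among the MHCII-high libraries on the B cell axis with a Cxcl13 value of 6.9.

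The soluble form of Cxcl16 is released by the proteases Adam10 and Adam17. Of the 6 shedding and cleaving proteases listed, 2 were higher in MHCII-high cells over the mean of both times, and neither was a Cxcl16 sheddase. They were Mmp12, macrophage elastase (2.49 ± 0.20, limma adjusted p = 3.3e-08), and Dpp4, which trims the amino terminus of chemokines such as Cxcl10 (3.81 ± 0.49, limma adjusted p = 2e-05). Adam10 differed by 0.23 ± 0.14 and Adam17 by -0.12 ± 0.11, and neither passed (limma adjusted p = 0.39 and 0.58). Adam17 fell from 2 to 4 weeks in MHCII-low cells (-0.66 ± 0.16, limma adjusted p = 0.044, a call lost in 8 of 17 alternatives), where Mmp12 fell too (-1.79 ± 0.29, limma adjusted p = 0.0014). Cxcr6, the receptor of Cxcl16, was read at 30.4 to 129.1 normalized counts and passed in no comparison.

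Cxcl13 lies on chromosome 5 at 95956951 to 95961068, forward strand, with 1172 bases of exon, and its start-site stretch is printed above. It was at or near 0 in MHCII-low cells: 3.5 and 0 normalized counts in the controls, 0, 3.2 and 8.3 at 2 weeks, and 6.9, 1.0 and 0 at 4 weeks. A count of 0 reads allows up to 3 reads, which is 2.58, 6.71 and 3.20 normalized counts in the 3 libraries without a read. MHCII-high cells had 130.7, 109.8 and 64.3 at 2 weeks, and 243.5, 469.1 and 63.3 at 4 weeks. Every MHCII-high library was above every MHCII-low library.

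The difference between MHCII-high and MHCII-low cells for Cxcl13 was 4.86 ± 1.15 [2.47, 7.24] at 2 weeks (limma adjusted p = 0.021) and 6.28 ± 1.15 [3.89, 8.66] at 4 weeks (limma adjusted p = 0.0025). These rest on 0 to 15 reads in each MHCII-low library and 52 to 299 in each MHCII-high library. Averaged over both times it was 5.57 ± 0.81 [3.88, 7.25] (limma adjusted p = 1e-04), and this call held in all 23 alternatives. At 2 weeks the call was lost without MHCII-low replicate 1 or 2 (limma adjusted p = 0.14 and 0.055) or MHCII-high replicate 1 or 2 (0.098 and 0.096), and with the mitochondrial ribosomal RNA share as a covariate (0.14). That share was higher in each 2-week MHCII-high than in each 2-week MHCII-low library, as given beside Cxcl16. The 2-week difference of Cxcl13 was 4.35 by edgeR and 4.50 by DESeq2 on recovered reads. Within MHCII-high cells the 4-week and 2-week values overlapped, with a difference of 0.99 ± 1.15 [-1.40, 3.37] (limma adjusted p = 0.76).

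Its closest genes in pattern were Tenm4, a teneurin, and Stab1, a scavenger receptor of macrophages and sinusoidal endothelium, at root mean square differences of 1.07 and 1.20 beside a variation of 3.05 for Cxcl13 itself. Tenm4 was 0 to 33.0 in the MHCII-low and 43.7 to 202.7 in the MHCII-high libraries, and Stab1 2.1 to 59.5 and 255.6 to 697.7. In both, every MHCII-high library was above every MHCII-low library. These 2 genes were picked for likeness to Cxcl13 over the same libraries, so a shared separation follows from that choice.

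B cell markers moved with Cxcl13. All 6 of the listed B cell markers were higher in MHCII-high cells over the mean of both times, and none was at 0 in all libraries. Their sum was 40.5 to 219.2 normalized counts in 7 of the MHCII-low libraries, 2187 in 4-week MHCII-low replicate 1, and 804.5 to 3830 in the MHCII-high libraries. In that 1 MHCII-low library Ighm, the immunoglobulin heavy chain, made up 2126.7 of the sum, and Cxcl13 was 6.9. The macrophage, dendritic cell and T or NK cell sums given beside Cxcl16 differed between the same libraries. Their part in the result was not tested.

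Cxcr5, the receptor of Cxcl13, was 25.0, 70.6 and 11.0 in 4-week and 80.8, 76.2 and 46.9 in 2-week MHCII-high cells, and 3.2 to 33.1 in MHCII-low libraries. The difference over both times was 1.85 ± 0.70 and did not pass (limma adjusted p = 0.12). Of the lymphotoxin genes known to act upstream of Cxcl13, 5 of 6 were tested; none was higher in MHCII-high cells and 1 was lower, the tumor necrosis factor receptor Tnfrsf1a (-0.42 ± 0.13, limma adjusted p = 0.049), a call lost in 12 of 23 alternatives. Ltb, lymphotoxin beta, differed by 2.94 ± 1.00 (limma adjusted p = 0.080), and Tnfrsf1b, the second tumor necrosis factor receptor, by 0.14 ± 0.11 (limma adjusted p = 0.51).

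Cxcl2, the most abundant ELR ligand, was read at 136.3 and 120.5 normalized counts in the controls and 268.5, 197.5 and 183.9 in MHCII-low cells at 2 weeks. At 4 weeks MHCII-low cells had 230.7, 160.8 and 161.0. MHCII-high cells had 499.6, 714.3 and 203.3 at 2 weeks, and 374.6, 156.9 and 427.2 at 4 weeks. In each MHCII-high group 2 libraries lay above all MHCII-low libraries and 1 lay among them. The difference over both times was 0.83 ± 0.32 [0.16, 1.49] and did not pass (limma adjusted p = 0.13). It did pass without 2-week MHCII-high replicate 3 (1.08, limma adjusted p = 0.033), without 4-week MHCII-high replicate 2 (1.05, 0.039) and with DESeq2 on recovered reads (0.96, adjusted p = 0.025).

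Cxcl1 was lower than Cxcl2 per kb of exon in every group. Its normalized counts were 20.3 and 9.5 in controls, 47.0, 63.7 and 32.5 in 2-week MHCII-low cells, then 47.2, 82.4 and 5.3 at 4 weeks. MHCII-high cells had 82.3, 136.0 and 74.7 at 2 weeks and 25.0, 12.6 and 9.7 at 4 weeks, without overlap between the times. The time difference in MHCII-high cells was -2.61 ± 0.91 [-4.51, -0.71], not called by limma (adjusted p = 0.18), while DESeq2 on recovered reads called it (-2.65, adjusted p = 0.0496). In MHCII-low cells at 2 weeks Cxcl1 was above both controls in all 3 libraries, but the difference of 1.65 ± 1.02 [-0.47, 3.78] did not pass (limma adjusted p = 0.56).

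Cxcl3 showed no order by group. It ranged from 0 to 108.3 normalized counts, and both ends fell in 4-week MHCII-high cells, with 0, 4.7 and 108.3 in replicates 1, 2 and 3. The 0 allows up to 6.24 normalized counts. In 2-week MHCII-high cells it was 11.8, 41.0 and 76.5, and in controls 25.7 and 45.6. Its high-minus-low difference over both times was -0.52 ± 0.91 [-2.42, 1.38], an interval that allows a change of over 1 log2 unit either way. On recovered reads the sign was opposite, 0.42 by edgeR and 0.48 by DESeq2, also at 4 weeks alone, where Cxcl3 differed by -1.15 in limma, 0.56 in edgeR and 0.62 in DESeq2. The 3 ELR genes are close relatives, and how reads shared between them were assigned is not given in the sources used here, so small differences between them are uncertain.

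Receptors and NF-kB genes were read beside the ELR ligands. Cxcr2, their receptor, was among the higher genes of the receptor list, at 1109.8 and 583.7 normalized counts in controls and 4783.6, 3460.2 and 4293.1 in 2-week MHCII-low cells. By 4 weeks MHCII-low cells read 634.6, 1179.4 and 686.6. MHCII-high cells had 4298.9, 2298.6 and 3331.8 at 2 weeks and 1789.9, 1456.0 and 505.1 at 4 weeks. Cxcr2 thus differed by time in cells of both MHCII levels: it rose against control at 2 weeks in MHCII-low cells (2.36 ± 0.41, limma adjusted p = 0.0019), fell by 4 weeks in MHCII-low cells (-2.37 ± 0.36, limma adjusted p = 0.0011) and fell in MHCII-high cells (-1.55 ± 0.36, limma adjusted p = 0.041). The rise was lost without control replicate 3 (limma adjusted p = 0.11) and with only the compared groups fitted, which also ended the fall in MHCII-low cells, and the fall in MHCII-high cells was lost in 11 of 17 alternatives.

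Among 9 neutrophil markers, the summed level was 14200 to 15660 normalized counts in 2-week MHCII-low cells, 10490 to 14590 in 2-week MHCII-high cells and 5124 to 10070 in the other groups, so it was higher at 2 weeks. Cxcr2 is itself on that list, and its values given above are a large part of each 2-week sum, so the sum and Cxcr2 are not independent. With Cxcr2 taken out, the 2-week and 4-week sums still did not overlap in MHCII-low cells, but they overlapped in MHCII-high cells. The closest MHCII-high sums, with Cxcr2 included, were 10489.6 in 2-week replicate 2 and 10067.0 in 4-week replicate 1. No test was run on the sum without Cxcr2. Of the 7 markers tested, 2 were higher in 2-week MHCII-low cells than in controls and 2 lower at 4 than at 2 weeks in MHCII-low cells, Mmp8, a neutrophil collagenase, and Cxcr2 both times; Cxcr2 alone was lower with time in MHCII-high cells, and none was called between MHCII levels. Mmp8 was 913.4 to 5818.5 normalized counts over the 14 libraries and Csf3r, the receptor of the growth factor G-CSF, 3482.3 to 6456.2, while S100a8 was 76.3 to 396.5, Retnlg 0 to 213.5 and Ngp 0 to 294.3. Ly6g had no read in 11 libraries and at most 22.0 normalized counts, and Camp none in 12 and at most 7.8. The part of neutrophil transcripts in the values of Cxcr2 and the ELR ligands was not tested. Cxcr4, Cxcr1, Cxcr6, Cxcr3 and Ackr3 were tested and passed in none of these comparisons, and Ackr1, at 0 to 1.1, was not tested.

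Of 15 NF-kB pathway genes and feedback targets, 2 were higher in MHCII-high cells over both times and none lower, beside 5% and 2.21% of all tested genes. Nfkbiz, an inducible nuclear IkB protein, was 126.9 to 465.9 normalized counts in MHCII-low and 558.6 to 942.1 in MHCII-high libraries (limma adjusted p = 1e-04). Rel, an NF-kB subunit, differed by 0.48 ± 0.13 (limma adjusted p = 0.024), a call lost in 11 of 23 alternatives. Rela, the subunit p65, had -0.40 ± 0.13 and did not pass (limma adjusted p = 0.065). The median of the 15 was 0.25, beside 0.02 for all genes. Of 7 tested cytokine genes that induce or accompany ELR ligands, 1 was higher, Il1b, interleukin 1 beta (0.75 ± 0.21, limma adjusted p = 0.033), a call lost in 13 of 23 alternatives. Il1b fell between 2 and 4 weeks by 1.69 on the log2 scale in MHCII-low cells (limma adjusted p = 0.0039) and by 1.37 in MHCII-high cells (limma adjusted p = 0.028, lost in 9 of 17 alternatives). Cxcl1, Cxcl2 and Cxcl3 passed limma's test in neither of those time comparisons, while DESeq2 called the fall of Cxcl1 in MHCII-high cells, as given above. A link between the NF-kB or cytokine genes and these ligands was not tested.

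Cxcl9 and Cxcl10, the Cxcr3 ligands, lie near each other on chromosome 5, and no test compared their patterns. Both had their highest group mean in 2-week MHCII-high cells, 413.2 normalized counts for Cxcl9 and 98.17 for Cxcl10. The lowest mean of Cxcl9 was in controls (92.8) and that of Cxcl10 in 4-week MHCII-high cells (14.53). Cxcl9 was 94.3 and 91.3 normalized counts in controls, 111.9, 116.2 and 281.4 in 2-week MHCII-low cells, and 133.8, 76.5 and 135.4 at 4 weeks. MHCII-high cells read 232.1, 438.3 and 569.1 at 2 weeks and 437.1, 167.9 and 36.5 at 4 weeks. The last of these was the lowest of all 14 values and lay in the same group as one of the highest. Over both times the high-minus-low difference was 0.82 ± 0.46 [-0.14, 1.78], not called (limma adjusted p = 0.33), and without 4-week MHCII-high replicate 3 it was 1.30 and called (limma adjusted p = 0.032).

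Cxcl10 was 55.7 and 42.2 in controls, 35.8, 25.5 and 73.2 in 2-week MHCII-low cells and 10.3, 36.3 and 14.9 at 4 weeks. MHCII-high cells had 148.2, 80.3 and 66.0 at 2 weeks, and 8.3, 32.9 and 2.4 at 4 weeks. Every 4-week MHCII-high library was below every 2-week one, with a difference of -3.19 ± 0.90 [-5.07, -1.31] that did not pass (limma adjusted p = 0.088). It passed without 4-week MHCII-high replicate 2 (-4.05, limma adjusted p = 0.029) and with DESeq2 on recovered reads (-2.75, adjusted p = 0.045), and not with edgeR (-2.75, adjusted p = 0.20). Cxcl10 rested on as few as 2 reads in a library. The normalized count of Cxcl9 over that of Cxcl10 ran from 1.57 in 2-week MHCII-high replicate 1 to 52.7 in 4-week MHCII-high replicate 1.

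Interferon genes were set beside this pair. Of 14 tested signalling genes, 5 were higher in MHCII-high cells over both times and none lower, among them the type I receptor chain Ifnar1 (0.42 ± 0.11, limma adjusted p = 0.021) and the factors Irf9 (0.65 ± 0.18, limma adjusted p = 0.028) and Irf7 (0.97 ± 0.27, limma adjusted p = 0.033). Of the 23 alternatives, 7 ended the call of Ifnar1, 8 that of Irf9 and 10 that of Irf7. For Socs3, a feedback inhibitor of cytokine signalling also called higher, 13 did. The median of the 14 was 0.10. Of 15 tested interferon targets, 2 were higher and none lower, beside 5% and 2.21% of all tested genes. They were Mx1, an antiviral GTPase (2.38 ± 0.53, limma adjusted p = 0.0067), and Rsad2, viperin (1.64 ± 0.43, limma adjusted p = 0.022). Their calls were lost in 1 and 5 of 23 alternatives. The median of the 15 was 0.11, and 13 of them were not called. From 2 to 4 weeks in MHCII-high cells no interferon target passed, and 3 of the 15 had a positive difference.

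Cxcl14 passed the test in no comparison. It was 174.9 and 198.9 normalized counts in controls, 322.2, 197.5 and 350.2 in 2-week and 258.1, 211.8 and 226.0 in 4-week MHCII-low cells. MHCII-high cells had 192.4, 173.7 and 437.0 at 2 weeks and 141.5, 409.5 and 528.2 at 4 weeks, so the 4-week MHCII-high group held both the lowest and the highest value. Every 4-week MHCII-low library was above both controls, by a difference of 0.31 ± 0.51 that did not pass (limma adjusted p = 0.98). The group means ran from 186.9 ± 17 (SD, n = 2) in controls to 359.7 ± 198 (SD, n = 3) in 4-week MHCII-high cells. Over both times the high-minus-low difference was 0.12 ± 0.32 [-0.55, 0.79] (limma adjusted p = 0.89). For this average, a change of more than 0.79 upward or 0.55 downward on the log2 scale lies outside the interval. The separate intervals were wider, -0.20 [-1.15, 0.75] at 2 weeks and 0.44 [-0.51, 1.38] at 4 weeks.

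Pf4 was low and scattered. Its normalized counts were 16.4 and 0 in controls, 0, 9.6 and 34.1 in 2-week and 5.1, 41.2 and 11.7 in 4-week MHCII-low cells, 20.1, 18.0 and 45.2 in 2-week and 2.1, 42.4 and 2.4 in 4-week MHCII-high cells. Each pair of groups overlapped except 2-week MHCII-high cells and controls, which were not compared by a test. At 2 weeks the high-minus-low difference was 1.88 by limma, 0.78 by edgeR and 0.89 by DESeq2, and none passed. Over both times the high-minus-low difference of 0.47 ± 1.00 [-1.62, 2.56] had too wide an interval to bound it within 1 log2 unit. Summed platelet markers, a list of 9, were 158.9 to 219.5 in controls, 80.5 to 111.5 in 2-week and 85.3 to 191.2 in 4-week MHCII-low cells, 178.6 to 229.5 in 2-week and 59.6 to 253.9 in 4-week MHCII-high cells. At 2 weeks the MHCII-high sums thus lay above the MHCII-low sums without overlap, all 7 tested markers had a positive difference with a median of 1.05, and none was called. Their part in the Pf4 values was not tested. Gp6 had no read in 11 libraries. Of the 4 granule and glycosaminoglycan carrier genes listed, Srgn, the proteoglycan serglycin that stores Pf4 in platelets (0.85 ± 0.22, limma adjusted p = 0.018), and Sdc4, a cell surface heparan sulfate carrier (1.73 ± 0.51, limma adjusted p = 0.041), were higher in MHCII-high cells over both times, calls lost in 7 and 15 of 23 alternatives.

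**Figure D4:**
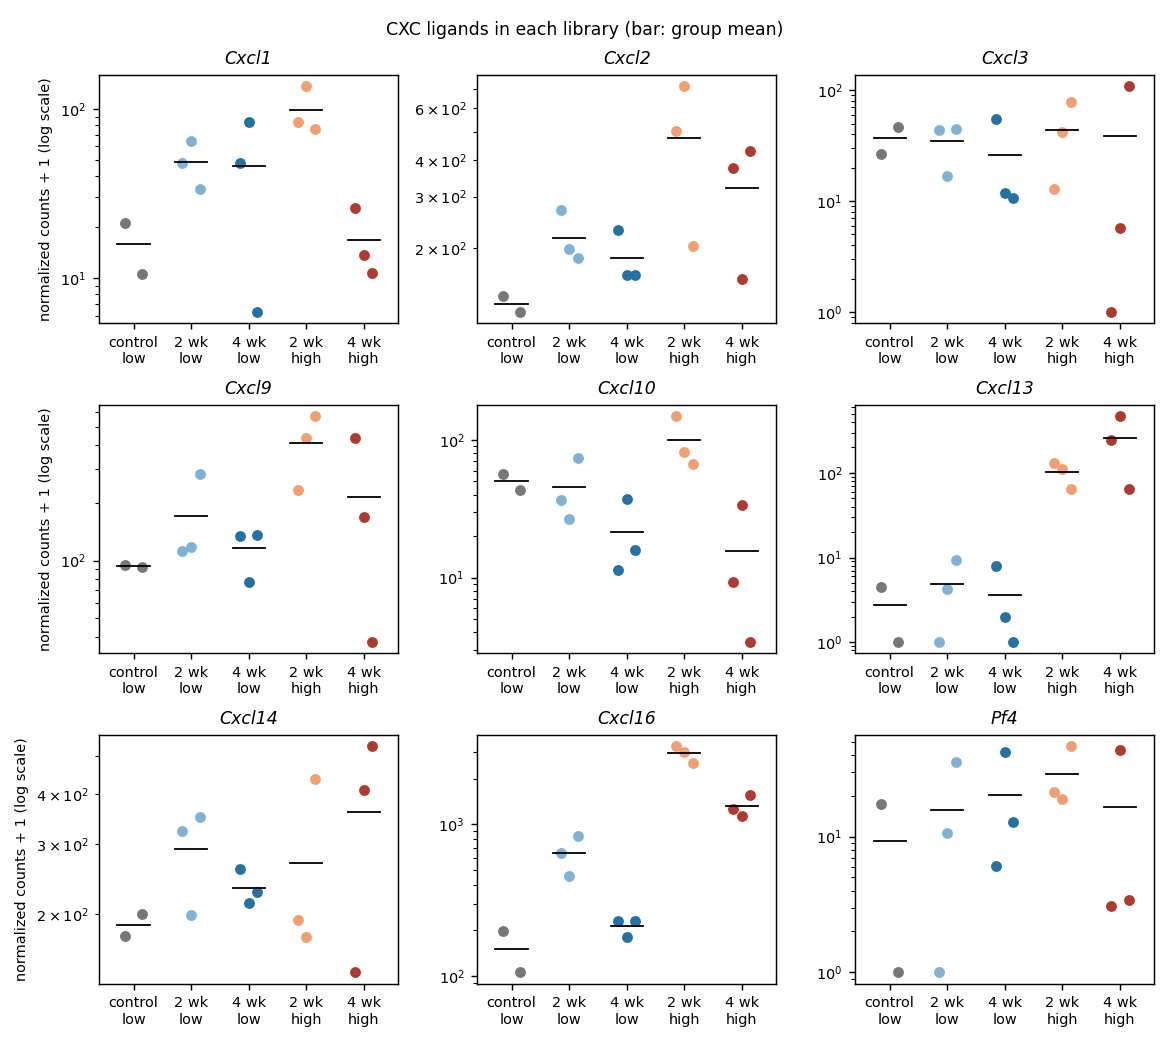
Normalized counts + 1 of each ligand (log y axes, which differ between panels) in each library, by group, with the group mean of those values as a bar. Cxcl16 and Cxcl13 separate the MHCII-high from the MHCII-low libraries, and the other 7 ligands overlap between them.

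Scaled by exon length, so that genes can be compared with each other, the ligand with the highest level differed by MHCII. Cxcl2 was the highest of the 9 per kb of exon in 7 of the 8 MHCII-low libraries, and Cxcl16 in 2-week MHCII-low replicate 3. In MHCII-high cells Cxcl16 was highest in 5 of 6 libraries, and Cxcl13 in 4-week replicate 2. Group means of Cxcl16 were 970 ± 120 normalized counts per kb in 2-week and 436 ± 73.7 in 4-week MHCII-high cells, beside 448 ± 243 and 303 ± 136 for Cxcl2 (SD, n = 3). Cxcl16 was above Cxcl2 in each of the 6 MHCII-high libraries. In control cells Cxcl2 was at 122 ± 10.6 and Cxcl14 at 103 ± 9.31 (SD, n = 2), and Cxcl16 lay below both at 65.2 and 34.8 in replicates 1 and 3.

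The sum of the 9 ligands per kb was 437.4 and 372.5 in controls and 443.7 to 929.5 in MHCII-low cells after bleomycin. It was 2081, 2272 and 1800 in 2-week and 1241, 1319 and 1403 in 4-week MHCII-high cells, with no overlap between those 2 groups or with any MHCII-low library. Cxcl16 supplied 43.5% to 51.9% of the sum in 2-week and 28.5% to 36.9% in 4-week MHCII-high cells, and 9.3% to 29.6% in MHCII-low libraries.

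**Figure D5:**
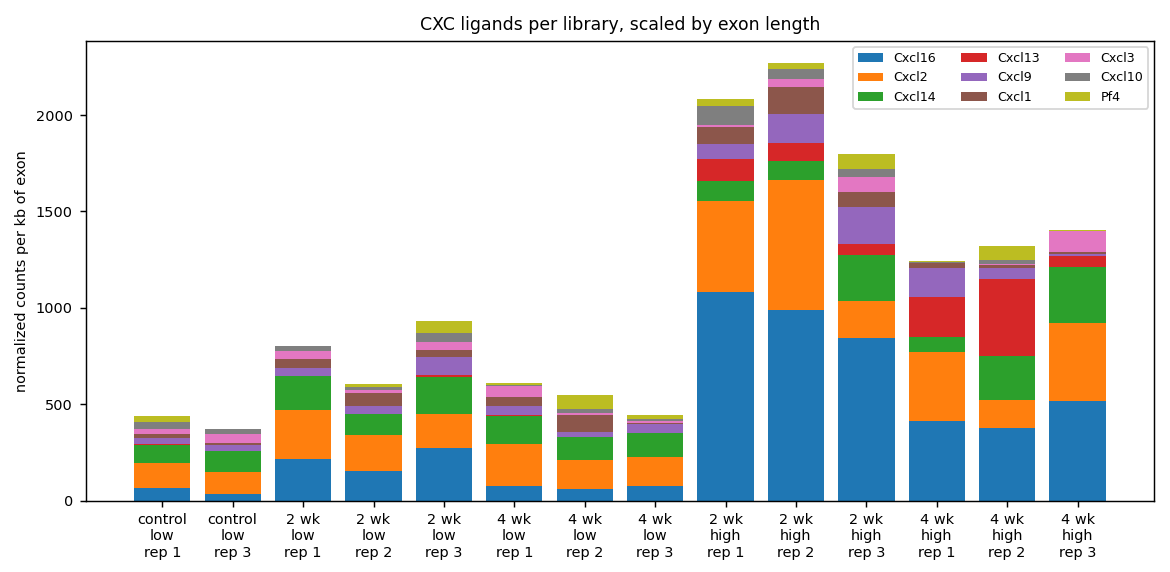
Stacked normalized counts per kb of exon for the 9 ligands (y axis, starting at 0) in each of the 14 libraries. The 6 MHCII-high libraries reach 1241 to 2272 and the 8 MHCII-low libraries 372.5 to 929.5, and Cxcl13 is a visible part of the MHCII-high bars only.

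The other 6 CXC ligand genes of the table were read for comparison. Cxcl5, an ELR ligand of lung epithelium, had no read in any library, and 5 were tested. Cxcl15, a neutrophil attractant of lung epithelium, was 1380.5, 1510.6 and 784.5 normalized counts in MHCII-high cells at 2 weeks, beside 420.6, 191.1 and 264.3 in 2-week MHCII-low cells, a difference of 2.08 ± 0.38 (limma adjusted p = 0.0032). At 4 weeks the difference was 0.25 ± 0.38 (limma adjusted p = 0.82), and the interaction of -1.84 ± 0.54 did not pass (limma adjusted p = 0.60). Epithelial markers were read beside Cxcl15. Of the 9, 4 were higher in 2-week MHCII-high cells, beside 2.29% of all tested genes, led by Slc34a2, a phosphate transporter of alveolar type 2 cells. The summed list was 10000 to 17340 in 2-week MHCII-low and 12490 to 24090 in 2-week MHCII-high libraries and overlapped. At 4 weeks 3 of the 9 were higher, beside 1.96% of genes. The 4-week sums ran the other way without overlap, 25140 to 32490 in MHCII-low and 12680 to 21690 in MHCII-high libraries. At that time 6 of the 9 differences were positive, 3 were negative and 0 were called lower, so the sum does not stand for most of these markers. Their part in the Cxcl15 value was not tested. Cxcl12, Cxcl17, Cxcl11 and Ppbp passed in none of the high-minus-low comparisons.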

How the data were processed

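Lung cells were digested, sorted on SiglecF, CD11c and MHCII, and amplified to cDNA from bead-isolated mRNA before transposase library preparation, per the labels' protocols, with no molecular identifiers described. The deposited values are normalized counts, a signal the authors made from gene counts, per the file headers, and GC content is a percent per gene as deposited by the authors. STAR, DESeq2 and build mm10 are named without roles, per the submitters' processing notes; the counter, annotation and strand setting were not given in the sources used.

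Values were divided by 1 step per library (0.39 to 2.24) to recover reads. Among the lower nonzero values, where this was checked, 100.0% gave whole reads within the rounding of 0.05. Higher values were divided by the same step and rounded without this check. The main test was limma 3.58.1 (R 4.3.3) on log2(value + 1) with trended variance, 1 coefficient per group over all 14 libraries, Benjamini-Hochberg adjustment and a threshold of 0.05. On the recovered reads, edgeR 4.0.16 called 1431 genes and DESeq2 1.42.0 called 2122 between MHCII levels over both times, beside 1254 by limma. Scripts were tested on simulated data. Alternatives covered pseudocount, filter, scaling, GC trend, mitochondrial RNA, test, samples fitted, replicate block and each left-out library.

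The ligands and gene lists were chosen with earlier results of these data known. Named were all ligands and receptors, up to 3 genes per list with the smallest p, and the 2 genes closest to each ligand averaging 50 or more normalized counts. Adam10, Adam17, Ighm, Ly6g, Camp, Csf3r, S100a8, Retnlg, Ngp, Socs3, Gp6 and Siglecf were singled out after their values were seen. Motifs were searched on both strands.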

Additional observations from a re-analysis of the deposited data

How the results depend on the processing

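Of 9 called ligand differences, 4 kept their call under every alternative run: Cxcl16 between MHCII levels at 2 weeks, at 4 weeks and over both, and Cxcl13 over both. None of the 9 changed direction. Of the 63 that were not called, 4 were called in at least 1 alternative, those of Cxcl2 and Cxcl9 between MHCII levels over both times and of Cxcl1 and Cxcl10 between times in MHCII-high cells. Of these 63, 23 changed sign in at least 1 alternative.

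The 2 ligands called between MHCII levels at 2 weeks became 1, with Cxcl13 lost, without a filter on low values (limma adjusted p = 0.078), with the mitochondrial RNA share as a covariate (0.14) and with only the compared groups fitted (0.06). Leaving out each library gave 1 to 2. At 4 weeks the 2 became 1 with only the compared groups fitted. Over both times leaving out each library gave 2 to 3. The 1 ligand called in 2-week MHCII-low cells against control became 0 with only the compared groups. The 1 that fell with time in MHCII-low cells became 0 with library totals and with only the compared groups. In MHCII-high cells the 1 that fell became 0 with no filter, library totals, GC trend removed or only the compared groups, 3 with DESeq2 (Cxcl16, Cxcl1 and Cxcl10), and 0 to 1 over left-out libraries. Fits of only the compared groups have fewer libraries. The cause of a lost or gained call was not tested for any setting.

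Same-numbered MHCII-high and MHCII-low libraries correlated only weakly in their deviations (0.107, 0.068 and 0.025 at 2 weeks, 0.009, 0.034 and 0.015 at 4 weeks). All of these were above 0, while those of other pairs ran from -0.124 to 0.077. The 2-week MHCII-high replicate 2 correlated best with MHCII-low replicate 3 (0.077), and 4-week MHCII-high replicate 3 with MHCII-low replicate 1 (0.017). With a replicate block the count of called ligands stayed at 2, 2 and 2 between MHCII levels, 1 and 0 against control, 1 and 1 between times and 0 for the interaction.

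Counts over all genes ranged, left-out libraries aside, from 207 to 2006 (499 reported) between MHCII levels at 2 weeks, 56 to 911 (434) at 4 weeks, 500 to 2626 (1254) over both, 36 to 749 (332) and 0 to 74 (8) for 2-week and 4-week MHCII-low cells against control, 15 to 320 (149) and 0 to 638 (186) between times in MHCII-low and MHCII-high cells, and 0 to 60 (0) for the interaction. The share of calls that were higher moved from 79.8% to 69.0% (library totals) and 17.9% (GC trend) between MHCII levels at 2 weeks, from 77.7% to 92.8% (GC trend) for 2-week MHCII-low cells against control, and from 29.0% to 46.5% and 68.9% between times in MHCII-high cells. Library totals moved the median of all genes by up to -0.15 and the GC trend by up to -0.38. Cxcl13, Cxcl3, Cxcl10 and Pf4 fell to 2 reads or fewer in at least 1 library, which limits their precision.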

Other observations

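The composition of the ELR ligands varied between libraries of 1 group. Cxcl2 supplied 57.3% to 84.2% of the summed normalized counts of Cxcl1, Cxcl2 and Cxcl3 in 2-week MHCII-high cells, 78.4% to 93.7% in 4-week MHCII-high cells and 63.3% to 91.5% in the 8 MHCII-low libraries, so the ranges overlapped. Cxcl2 had Zfp553, a zinc finger gene, as the gene closest in pattern over the 14 libraries, at a root mean square difference of 0.30 in log2 beside its own variation of 0.74. For Cxcl9 it was Phf11b at 0.59 beside 1.06, and for Cxcl14 Phb, prohibitin, at 0.32 beside 0.56. Cxcl1, Cxcl3, Cxcl10 and Pf4 averaged under 50 normalized counts and were not ranked in this way.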
